A study of Mus musculus with 15 samples.

Results

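The clustered replication-dependent histone genes were described in 15 libraries of a mouse glioma model. Members were the symbols H1f1 to H1f5 and those that start with H2ac, H2bc, H3c or H4c followed by a number, and 2 pseudogene symbols ending in -ps were left out. This gave 64 of the 38172 symbols listed: 5 genes of the linker histone H1, 18 of H2A, 17 of H2B, 12 of H3 and 12 of H4. Of these, 58 reached at least 1 TPM (reads per gene length, scaled to a common library total) in at least 3 libraries and were tested, among 19390 genes in all (H1 5, H2A 16, H2B 16, H3 9, H4 12). The 6 members below this level were H2ac1, H2ac19, H2bc18, H3c6, H3c7 and H3c13, with means of 0.0408 to 0.558 TPM.

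All tumours were low-grade gliomas. They were started in the brain of nestin-TVA mice, whose nestin promoter places the virus receptor TVA on progenitor cells, with a mixture of chicken DF-1 cells: some expressed R132H-mutant IDH, the others PDGFB, a growth factor. Tumours were imaged on day 28, treated for 9 days by intraperitoneal injection and taken on day 37. The groups were anti-PD1 (an antibody against the T cell inhibitory receptor PD-1, 1 mg, 2 injections a week, n = 4), vorinostat (an inhibitor of histone deacetylases, 1 mg daily, n = 4), the combination of both (n = 4) and placebo control (the vehicle of vorinostat, daily, n = 3). Mutant IDH and PDGFB were shared by all groups, the control included. The labels do not say that each library came from another animal, and every p-value here reflects no more than the scatter among these samples, which may be technical. The ages of the animals are not stated in the labels used here.

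Histone mRNAs of this kind are made in S phase, when new DNA must be packed into nucleosomes. They have no introns in their usual form, and instead of a poly(A) tail they end just after a short stem-loop, which the stem-loop binding protein (Slbp) holds during processing, export, translation and decay. The genes lie in clusters next to one another, the core classes are encoded by many similar copies and H1 by distinct subtype genes, and the nuclear factor Npat activates them from histone locus bodies. Tumour samples with more dividing cells therefore usually hold more of these mRNAs.

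Of the members, 53 lie on mouse chromosome 13 between 21715711 and 23934913 and 10 on chromosome 3 between 96219885 and 96270192 (GRCm38), and H2bc24 was not placed. A perfect stem-loop, a stem of 6 base pairs around a loop of 4 bases, was found after the stop codon in the annotated transcript of 40 of 63 members matched to GENCODE vM21. It began 21 to 58 bases after the stop codon (median 31). The sites below are shown because they carry the feature that sets these mRNAs apart; each is written 5′ to 3′ with the 16 bases of stem and loop in capitals, as in the GENCODE vM21 transcript.
H1f2: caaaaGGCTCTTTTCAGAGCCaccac
H2ac6: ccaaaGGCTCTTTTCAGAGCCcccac
H2ac20: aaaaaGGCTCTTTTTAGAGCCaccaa
H2bc8: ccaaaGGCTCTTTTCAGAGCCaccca
H2bc12: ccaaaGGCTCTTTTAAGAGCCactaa
H3c14: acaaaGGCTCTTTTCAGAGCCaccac
H4c8: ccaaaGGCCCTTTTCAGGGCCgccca
H4c9: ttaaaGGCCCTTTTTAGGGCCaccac
H4c11: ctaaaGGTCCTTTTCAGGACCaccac
The 40 members held 6 distinct stem-loops. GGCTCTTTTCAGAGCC was found in 24 of them (3 H1, 9 H2A, 7 H2B and 5 H3 genes) and in no H4 gene. The 10 H4 genes with a stem-loop used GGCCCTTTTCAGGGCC (6 genes), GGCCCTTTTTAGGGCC (2) or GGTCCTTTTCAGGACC (2).

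The annotated ends of the genes differed, and each TPM value divides reads by the annotated length. In 16 members the gene model ended at or before the stop codon, and in 22 it ended under 100 bases after the stem-loop, where the processed mRNA ends. In 18 it ran at least 100 bases beyond. The median of the members' mean levels was 1.86 TPM, 2.45 TPM and 8.74 TPM in these 3 sets, and 4.01 TPM in the 7 members without a perfect stem-loop in the model. These levels are per length of the model, so a longer model that holds few reads in its added part has a lower TPM. H2bc4 has a span of 8710 bases, which is 7.54 times its exon length, and H2bc6, H2bc22 and H2bc23 have spans 8.42, 2.48 and 1.78 times theirs. The length that the deposited values imply was the annotated span in 63 of 63 matched members. The levels of these 4 genes per exon base are therefore understated if their reads lie mainly in exons, which was not tested. On log2(TPM + 1) this would also shrink the differences of the low ones, H2bc6 and H2bc22.

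Levels differed far more between members than between groups. H1f2, a linker histone subtype, was the highest member with a mean of 270.0 TPM over the 15 libraries. It held 26.1 ± 3.74% of the members' summed TPM with anti-PD1, 28.8 ± 1.72% with vorinostat, 32.6 ± 6.24% with the combination and 34.6 ± 0.464% in control (SD). By deposited TPM, the highest core histone members were H4c9 (96.1 TPM), H2bc8 (59.2 TPM), H2bc12 (45.6 TPM), H4c12 (39.6 TPM) and H2bc4 (34.8 TPM). The place of H2bc4 is understated per exon base if its reads lie mainly in exons, since they are divided by its whole span (above). It took 58202 recovered reads over all libraries, against 13649 for H4c9 and 7044 for H2bc8. The top H2A genes, H2ac6 and H2ac18, had means of 13.3 TPM and 11.6 TPM, and the top H3 genes, H3c15, H3c14 and H3c4, had 20.2, 17.1 and 10.5 TPM. Below these, 45 members had means under 10 TPM and 11 under 1 TPM. All members together made up 0.0474% to 0.135% of a library's TPM. In 27 members the median library had fewer than 20 reads, so their values carry wide counting error.

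Copies of one class share sequence, and the sources used here do not say how the authors' counting divided shared reads. At least 50% of a member's 100-base words occurred in another transcript for 28 members, with class medians of 0.8% in H1, 77.8% in H2A, 36.4% in H2B, 49.8% in H3 and 25.4% in H4. H3c14 and H2ac18 shared 100% of their words, so the values of these genes are uncertain. The library kit does not keep strand, and 24 members overlap another annotated gene (H1f4 and H2bc6 overlap each other, and H3c14 and H2ac18 overlap Gm20634), so reads of such partners cannot be told apart. A predicted microRNA model overlaps 17 of the 18 H2A genes and no other member. The labels do not state whether poly(A) RNA was selected, so the share of stem-loop-ended mRNA in these libraries is not known.

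The members' promoters shared short motifs. RefSeq windows of 300 bases (250 before and 50 after the start, GRCm38.p6) were matched by symbol for 57 members, giving 58 windows. Exact words were searched on both strands: the TATA box as TATAAA, the CCAAT box as CCAAT, and ATTTGCAT, the octamer bound by POU2F1. Neighbouring words may share an end base. The word CCAAT was present in all 5 H1, 17 H2A, 15 H2B and 10 H3 windows, in 27.3% of the 11 H4 windows and in 37.4% of all 32851 promoter windows. The word TATAAA was present in 58.6% of the member windows and 13.6% of all windows. Its place in the window was not weighed, so a hit need not be the TATA box of that gene. In the H4c9 window below it lies far before the start. In H2bc7, H2bc12, H2bc15 and H2bc22 the only hit is on the strand of the H2A neighbour, and in H2ac8 it is on the strand of H2bc8. ATTTGCAT was present in 46.7% of H2B and 35.3% of H2A windows, in no H1, H3 or H4 window and in 1.7% of all windows. Windows of neighbouring H2A and H2B genes on opposite strands can overlap, so the same site can count in both classes. This was so for ATTTGCAT in H2ac1 and H2bc1, H2ac8 and H2bc8, and H2ac12 and H2bc12. The windows of the highest H1, H2B and H4 members by deposited TPM follow, with these words in capitals (as their reverse complement where on the other strand). They lie at chr13:23738557-23738856 on the plus strand (H1f2), chr13:23571150-23571449 on the plus strand (H2bc8) and chr13:22041313-22041612 on the minus strand (H4c9).
H1f2: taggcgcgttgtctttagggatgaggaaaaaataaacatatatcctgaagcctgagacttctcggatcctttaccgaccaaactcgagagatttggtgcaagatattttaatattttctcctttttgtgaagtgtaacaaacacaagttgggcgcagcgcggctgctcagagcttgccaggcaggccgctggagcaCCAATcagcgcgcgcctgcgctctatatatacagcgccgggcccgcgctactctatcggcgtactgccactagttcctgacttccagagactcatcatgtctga
H2bc8: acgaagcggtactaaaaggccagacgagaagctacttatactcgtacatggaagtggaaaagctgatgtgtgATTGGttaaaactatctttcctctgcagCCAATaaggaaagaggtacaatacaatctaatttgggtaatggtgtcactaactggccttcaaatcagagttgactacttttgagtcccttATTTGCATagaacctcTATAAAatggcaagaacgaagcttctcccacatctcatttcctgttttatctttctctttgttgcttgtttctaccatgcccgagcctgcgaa
H4c9: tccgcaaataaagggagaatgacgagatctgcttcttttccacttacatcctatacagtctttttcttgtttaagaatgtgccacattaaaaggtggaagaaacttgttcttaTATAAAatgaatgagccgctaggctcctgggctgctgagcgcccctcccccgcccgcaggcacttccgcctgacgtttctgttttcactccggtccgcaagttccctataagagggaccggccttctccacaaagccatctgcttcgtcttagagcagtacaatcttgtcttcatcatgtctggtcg
The H2bc8 window also holds the start of its neighbour H2ac8, which is read from the other strand.

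Such H2B and H2A neighbours, facing away from each other over a short shared stretch, formed 12 pairs that lie 175 to 305 bases apart. The H2B gene had the higher mean level in 10 of the 12 pairs. The ratio of H2B to H2A mean TPM had a median of 6.39 and ran from 0.62 (H2bc14 and H2ac14) to 31.67 (H2bc1 and H2ac1). H2bc4, H2bc22 and H2bc23 are divided by spans that hold introns (above), and their H2A neighbours are not. If their reads lie mainly in exons, the ratios of these pairs, and the median with them, are understated per exon base. H2bc8 was at 59.2 TPM and H2ac8 at 2.41 TPM, a ratio of 24.5, and H2bc8 was the higher in all 15 libraries. H2bc12 and H2ac12 had the closest course over the libraries, with r = 0.84 over 15 libraries on log2(TPM + 1), and H2bc1 and H2ac1 (a mean of 0.0408 TPM) had the lowest r (-0.31). The H2A copies share more sequence than the H2B copies (above), and the part of this in the ratios was not tested.

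**Figure D1:**
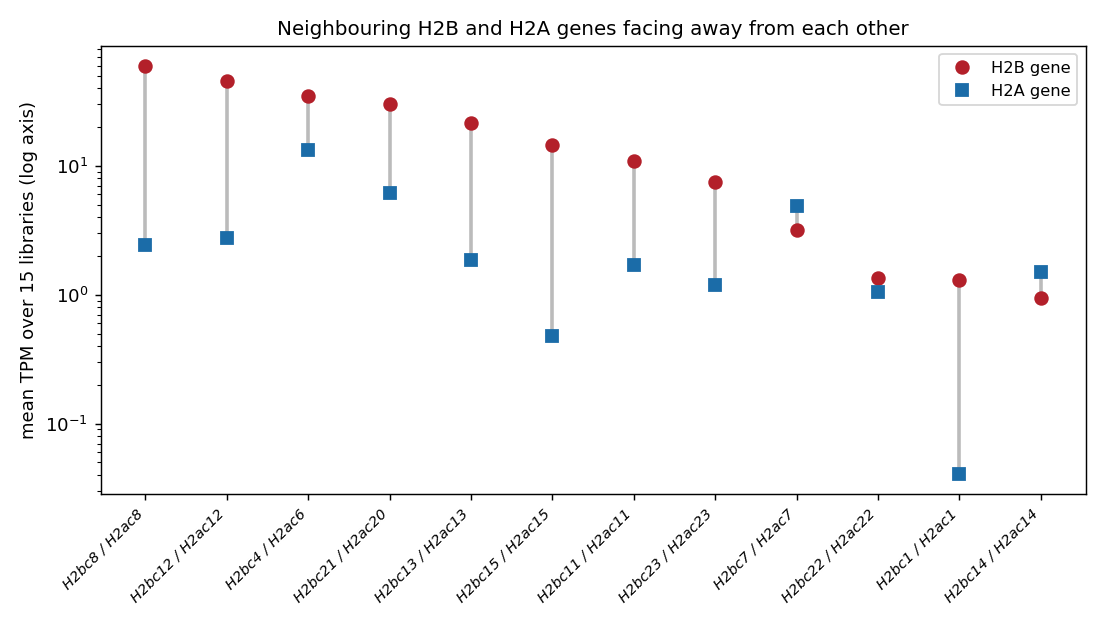
Mean TPM over 15 libraries (log axis) of the H2B genes (circles) and H2A genes (squares) in the 12 divergent pairs, ordered by the H2B level. The circle stands above the square in 10 of 12 pairs, with H2bc7 and H2ac7, and H2bc14 and H2ac14, the other way round. The circles of H2bc4, H2bc22 and H2bc23 stand too low per exon base if their reads lie mainly in exons, since their spans hold introns.

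The members took 9497 to 27164 recovered reads per library, and the libraries' recovered totals ran from 82.2 M to 163.5 M reads. Markers of the labelled cell type were present in every library, and so were neuron markers. The 8 genes of the oligodendrocyte progenitor and glioma list summed to 1610 to 11934 TPM, and the 16 neuron genes to 552 to 3061 TPM. The neuron genes summed to 1471 to 3061 TPM with anti-PD1, 552 to 2188 TPM with vorinostat, 1026 to 1833 TPM with the combination and 822 to 1272 TPM in control. In such bulk samples, fewer dividing cells and less histone mRNA per cell cannot be told apart.

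The summed level of all members was 677, 472, 744 and 710 TPM in the anti-PD1 libraries, 739, 743, 1113 and 1062 TPM in the vorinostat libraries, 868, 880, 1270 and 1345 TPM in the combination libraries and 704, 772 and 955 TPM in control. The means were 651 ± 122, 914 ± 201 and 1091 ± 252 TPM in these 3 treated groups and 811 ± 130 TPM in control (SD, n = 4, 4, 4 and 3). Every treated group overlapped control in this sum. The proliferation gene Mki67 had a different order: 36.9, 13.3, 42.3 and 30.7 TPM with anti-PD1, 42.4, 101, 122 and 51.1 TPM with vorinostat, 62.1, 8.19, 90.1 and 51.3 TPM with the combination, and 96.7, 67.6 and 113 TPM in control. Combination library 2 had the lowest Mki67 of all 15 libraries, and its summed histone level of 880 TPM was above that of 2 of the 3 control libraries.

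**Figure D2:**
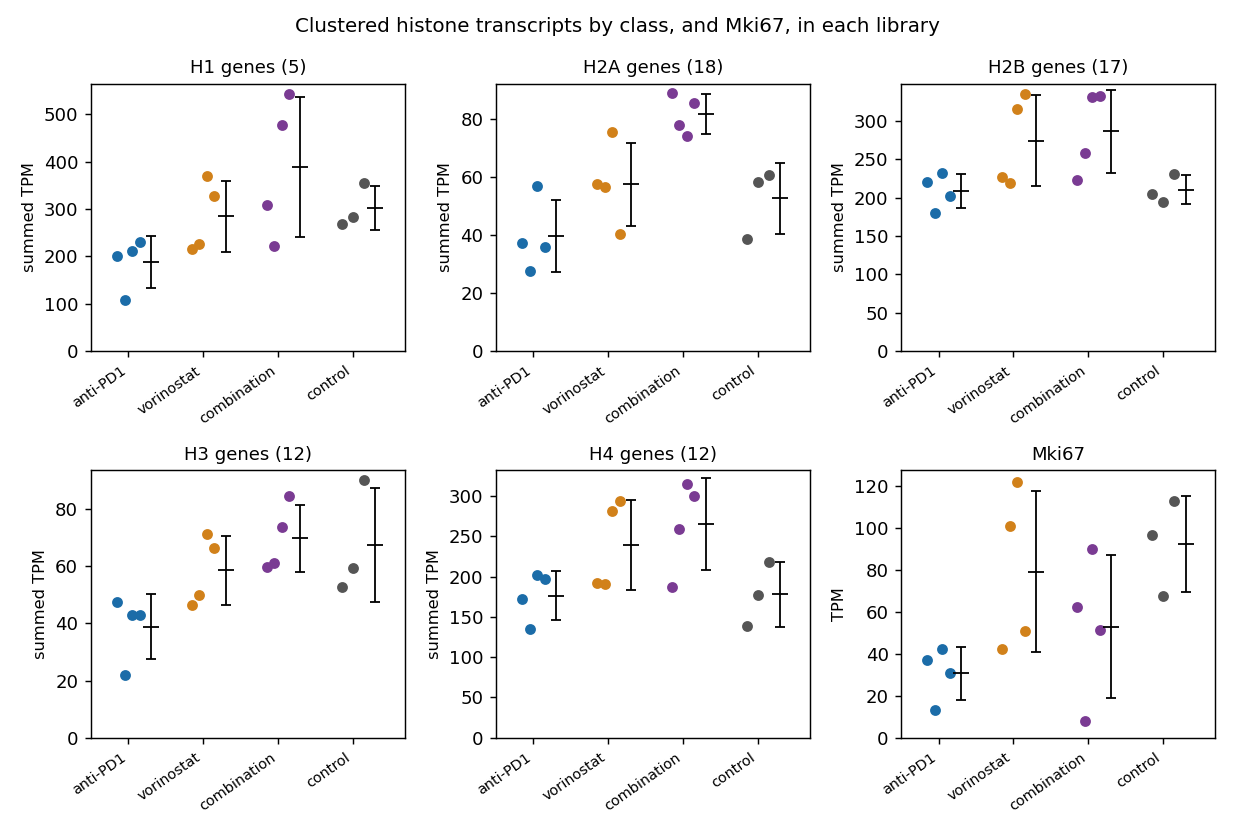
Summed TPM of each histone class and TPM of Mki67, with 1 point per library and the mean ± SD beside the points of each group. H1 sums are lowest with anti-PD1 (107 to 231 TPM, against 269 to 355 TPM in control), H2A sums with the combination are 74.0 to 89.1 TPM, against 38.7 to 60.8 TPM in control, and Mki67 is below 43 TPM in the 4 anti-PD1 libraries.

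By class, the H1 genes summed to 200, 107, 211 and 231 TPM with anti-PD1 and 269, 283 and 355 TPM in control, with no overlap. H1f2 makes up most of this sum. The H2A genes summed to 89.1, 78.0, 74.0 and 85.4 TPM with the combination and 38.7, 58.3 and 60.8 TPM in control, again with no overlap. The H2B genes summed to 223 to 332 TPM with the combination and 195 to 231 TPM in control, the H3 genes to 59.8 to 84.3 TPM and 52.6 to 90.0 TPM, and the H4 genes to 187 to 315 TPM and 139 to 219 TPM, so that these 3 classes overlapped. The H3 genes summed to 22.1 to 47.5 TPM with anti-PD1, wholly below control, while the H2B and H4 sums with anti-PD1 (180 to 231 TPM and 135 to 202 TPM) overlapped control. These sums carry no test, and both gaps of the core classes rest on 1 gene whose reads cannot be told from those of its copies. Without H2ac18 the H2A sums were 53.4, 41.7, 73.2 and 73.9 TPM with the combination and 34.4, 49.2 and 52.5 TPM in control. Without H3c14 the H3 sums were 33.8, 21.4, 36.2 and 33.8 TPM with anti-PD1 and 27.9, 35.4 and 40.2 TPM in control. The groups then overlapped in both classes.

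Single high members showed how the groups lay within each class. H4c9, the highest H4 gene, had 79.4, 61.1, 91.1 and 95.7 TPM with anti-PD1, 77.3, 86.4, 149 and 135 TPM with vorinostat, 74.6, 84.2, 130 and 118 TPM with the combination and 58.1, 91.4 and 110 TPM in control. H2bc12 had 34.7, 27.0, 42.3 and 41.5 TPM with anti-PD1, 44.1, 43.2, 54.9 and 54.5 TPM with vorinostat, 41.4, 42.0, 61.2 and 62.3 TPM with the combination and 43.6, 41.6 and 50.01 TPM in control. Both genes overlapped control in all 3 treated groups. H3c15 had 17.5, 12.2, 17.8 and 19.3 TPM with anti-PD1, 14.7, 18.2, 25.7 and 26.0 TPM with vorinostat, 18.2, 20.2, 29.0 and 29.5 TPM with the combination and 14.9, 19.1 and 20.7 TPM in control. H3c4 had 9.44, 4.99, 7.76 and 6.4 TPM with anti-PD1, 6.16, 11.8, 17.1 and 15.04 TPM with vorinostat, 9.34, 7.88, 15.1 and 16.7 TPM with the combination and 10.2, 9.88 and 9.18 TPM in control. These core H3 genes also overlapped control in every treated group. The linker gene H1f4 had 13.6, 7.04, 11.9 and 15.7 TPM with anti-PD1, 11.6, 10.6, 12.4 and 19.0 TPM with vorinostat, 12.2, 13.3, 18.7 and 27.2 TPM with the combination and 15.4, 13.2 and 14.5 TPM in control.

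The H2A genes differed from one another in pattern. H2ac6 had 11.2, 4.14, 9.18 and 9.13 TPM with anti-PD1, 8.63, 14.5, 22.3 and 19.4 TPM with vorinostat, 11.9, 8.60, 17.5 and 24.1 TPM with the combination and 12.7, 13.95 and 13.1 TPM in control, and its anti-PD1 values all lay below control. H2ac18 had 6.50, 9.94, 7.40 and 5.996 TPM with anti-PD1, 21.5, 8.14, 6.30 and 1.77 TPM with vorinostat, 35.6, 36.3, 0.793 and 11.5 TPM with the combination and 4.28, 9.05 and 8.27 TPM in control. Its combination libraries hold both the highest and the lowest value of the gene. H2ac20 had 3.21, 2.49, 8.505 and 5.74 TPM with anti-PD1, 2.63, 5.81, 7.64 and 3.98 TPM with vorinostat, 5.39, 7.38, 12.95 and 11 TPM with the combination and 2.15, 7.97 and 6.21 TPM in control.

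Anti-PD1 against control asked whether blocking PD-1 alone moved these genes. In limma's test, with Benjamini-Hochberg adjustment over all 19390 genes, 0 of 58 members rose and 2 fell, H1f5 and H3c14. Among all genes 5.29% were called, 1.77% higher and 3.52% lower, so 2 of 58 is near the share called among all genes. H1f5, another linker histone gene, had 0.875, 0.435, 1.72 and 0.946 TPM with anti-PD1 and 2.88, 3.90 and 2.66 TPM in control. The groups do not overlap, and the difference was -1.08 (SE 0.25, adjusted p = 0.038) on log2(TPM + 1). These H1f5 levels rest on 7, 4, 15 and 8 recovered reads with anti-PD1 and 23, 35 and 38 in control, so they carry wide counting error. H3c14, a core histone gene of the chromosome 3 cluster, had 13.7, 0.709, 6.57 and 8.91 TPM with anti-PD1 and 24.7, 23.8 and 49.8 TPM in control. It too had no overlap, with a difference of -2.27 (SE 0.57, adjusted p = 0.0431). Since H3c14 shared 100% of its words and overlaps Gm20634 (above), its reads cannot be told from those of other genes. H3c15, another H3 gene of that cluster, differed by -0.12 (SE 0.23) and did not pass. Anti-PD1 library 2, which had the lowest H3c14 level (16 recovered reads), also had the lowest Mki67 of its group.

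The other members had differences in both directions with anti-PD1, and none of them passed. The highest member, H1f2, had 183, 99.1, 196 and 213 TPM with anti-PD1 and 247, 264 and 332 TPM in control, and its difference of -0.74 (SE 0.33) did not pass (adjusted p = 0.128). H4c8 had 22.5, 22.4, 29.0 and 26.7 TPM with anti-PD1 and 7.72, 18.2 and 19.6 TPM in control, a difference of 0.78 (SE 0.29, adjusted p = 0.0918). H4c8 was the only member whose 4 anti-PD1 values all lay above control, while 9 members (15.5%) lay wholly below, beside 8.26% of all genes above and 20.5% below. The median difference was -0.19 over the 58 members and -0.14 over all genes. It was -0.74 in H1, -0.27 in H2A, -0.13 in H2B, -0.12 in H3 and 0.04 in H4. Scaling by median of ratios moved the median of all genes to -0.01, and member differences are read beside that shift.

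Genes of the wider histone and cell division pathways were read from the same fit. Among 21 genes for making and decaying histone mRNA, 0 rose and 1 fell: Slbp had 12.7, 10.5, 16.7 and 13.3 TPM with anti-PD1 and 23.4, 19.9 and 21.1 TPM in control, a difference of -0.67 (SE 0.14, adjusted p = 0.0295). Npat differed by -0.30 (SE 0.12) and did not pass. Among 16 chaperones and related genes 0 rose and 1 fell (Nap1l4, a nucleosome assembly protein gene, -0.61), with Chaf1a at -0.88 and Asf1b at -1.18 not passing. Of 11 replication-independent histone genes 0 rose and 2 fell, H2az2 (-0.52) and H1f0 (-0.90), while H2ax, H2az1, H3f3a and H3f3b had -0.51, -0.75, -0.59 and -0.35. Of 31 S phase genes 0 rose and 5 fell, among them the cyclin gene Ccne2 (-0.63) and the primase gene Prim1 (-1.08), with a median of -0.93. The DNA clamp gene Pcna and the helicase gene Mcm2 had -0.93 and -1.32 and did not pass. The 21 mitosis genes had a median of -1.46, and none passed, while 21 of 21 had an unadjusted p under 0.05. So had 8 of the 58 histone members and 6638 of all 19390 genes. Birc5 had the smallest p of the mitosis genes (-1.49, limma adjusted p = 0.0604). The histone members' median was -0.19.

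The 2 member calls depended on single libraries. Both were lost without control library 1, 2 or 3, without anti-PD1 library 2 or 4, without vorinostat library 2 and without combination library 1. Only H3c14 was called without anti-PD1 library 1, only H1f5 without vorinostat library 1 or combination library 4, and 7 members were called lower without anti-PD1 library 3. With Mki67 as a covariate, and with the neuron list's mean as a covariate, 0 members were called: H1f5 then differed by -0.75 and -0.61, and H3c14 by -2.02 and -1.97. Over all alternatives H1f5 ran from -1.68 to -0.61 and H3c14 from -2.66 to -1.63.

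Markers of other cell types moved in the same comparison. Of 16 neuron genes 4 rose (Gad1 by 1.46 and Sst by 1.45 on the log2 scale). Of 6 fibroblast and pericyte genes 3 fell, Lum (-1.97), Col3a1 (-1.54) and Dcn (-1.09), with summed levels of 47.0 to 62.1 TPM with anti-PD1 and 75.8 to 152 TPM in control. Of 3 T cell genes tested 1 rose, Cd4 (1.64), with the list summing to 5.67 to 14.02 TPM with anti-PD1 and 2.14 to 2.86 TPM in control. The part of the fibroblast and T cell genes in the members' differences was not tested.

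**Figure D3:**
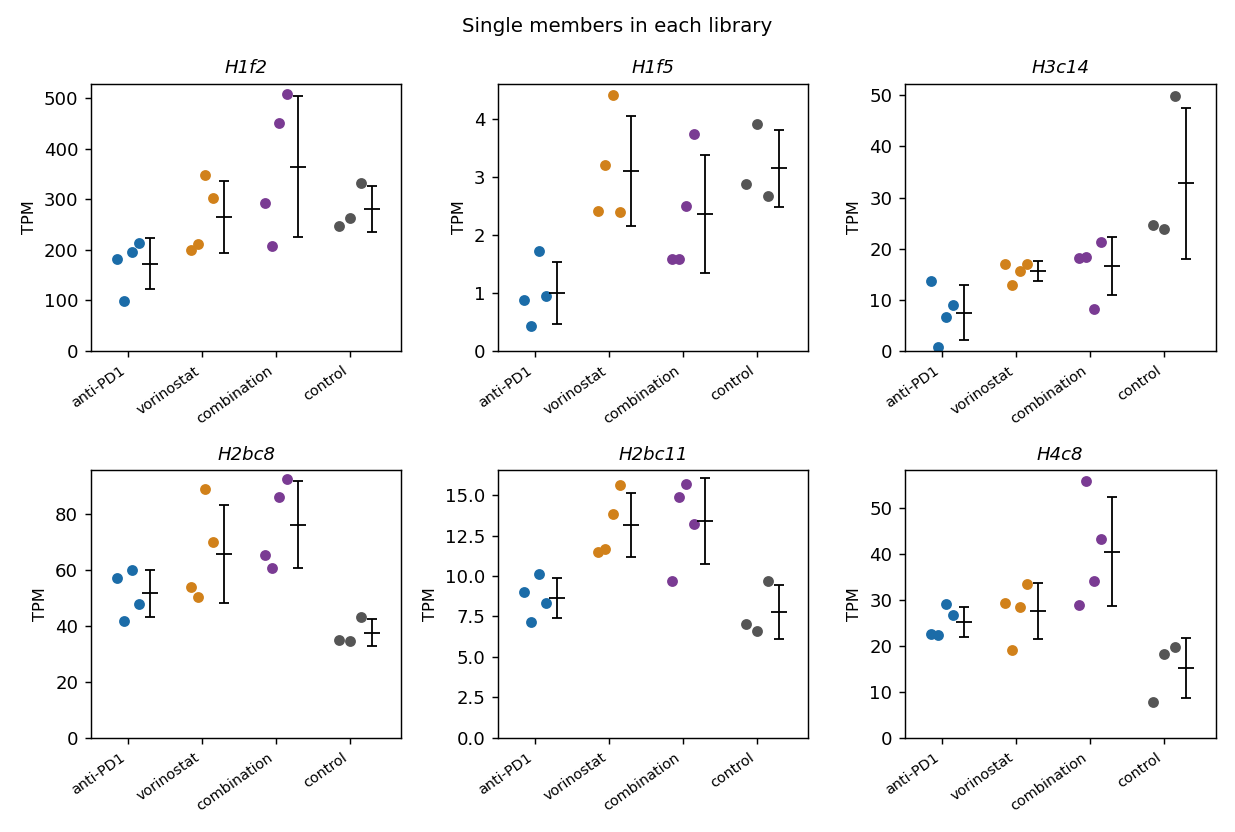
TPM of 6 members in each library (points) with the mean ± SD of each group. H1f5 and H3c14 are lower in all 4 anti-PD1 libraries than in any control library, and H2bc8 is higher in all 4 vorinostat libraries and all 4 combination libraries (50.3 to 92.7 TPM) than in control (34.6 to 43.1 TPM).

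Vorinostat against control asked whether deacetylase inhibition alone moved the histone genes. In limma's test 0 of 58 members passed, beside 0.00516% of all genes. Before adjustment, 7 members and 488 of all 19390 genes had p under 0.05. The smallest p belonged to H2B genes of the chromosome 13 cluster. H2bc11 had 11.5, 11.7, 13.8 and 15.7 TPM with vorinostat and 7.03, 6.62 and 9.68 TPM in control, a difference of 0.70 (SE 0.17, adjusted p = 1). H2bc8 had 53.9, 50.3, 89.0 and 70.0 TPM with vorinostat and 35.1, 34.6 and 43.1 TPM in control, a difference of 0.76 (SE 0.21, adjusted p = 1). H2bc4 had 34.1, 28.6, 47.8 and 39.2 TPM with vorinostat and 21.7, 23.1 and 27.6 TPM in control, a difference of 0.60 (SE 0.19). None of these 3 genes overlapped control, and none passed the adjustment. In all, 4 members lay wholly above control (6.9%, beside 1.34% of all genes) and 1 wholly below (1.72%, beside 3.12%). Median differences were 0.09 over the members and -0.05 over all genes, from -0.11 in H1 to 0.30 in H4.

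With the combination, 48 of 58 members had mean differences from control above 0 (82.8%, beside 43.2% of all genes). No member was called (0 of 58, beside 0.0206% of all genes), and 18 had an unadjusted p under 0.05, beside 1117 of all 19390 genes. H4c8 had 28.7, 55.7, 34.1 and 43.1 TPM with the combination and 7.72, 18.2 and 19.6 TPM in control, a difference of 1.41 (SE 0.29, adjusted p = 0.173). H2bc8 had 65.4, 60.7, 86.3 and 92.7 TPM with the combination and 35.1, 34.6 and 43.1 TPM in control, a difference of 0.99 (SE 0.21, adjusted p = 0.189). Both genes were higher in every combination library than in any control library. H2bc11 (9.72, 14.9, 15.7 and 13.2 TPM, against 7.03, 6.62 and 9.68 TPM in control) and H2bc4 (33.5, 39.6, 49.5 and 49.9 TPM, against 21.7, 23.1 and 27.6 TPM in control) had differences of 0.71 (SE 0.17) and 0.80 (SE 0.19). They did not overlap control either. In all, 12 members lay wholly above control (20.7%, beside 3.56% of all genes) and 1, H3c14, wholly below (1.72%, beside 4.08%). Those above were H2ac4, H2ac13, H2bc4, H2bc8, H2bc9, H2bc11, H3c1, H3c2, H3c11, H4c2, H4c3 and H4c8. Some had few recovered reads in control: H2ac4 1, 9 and 14, H2ac13 4, 5 and 10, and H3c1 3, 4 and 7. H3c2 had 0, 5 and 14, H3c11 0, 12 and 18, and H4c2 10, 3 and 18. These carry wide counting error, while the others had at least 33 reads in every control library. Copies of one class share sequence (above), so these members need not be independent.

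Medians by class in this comparison were 0.64 in H4, 0.40 in H3, 0.25 in H2A and 0.13 in H2B, with 0.14 in H1, 0.27 over all members and -0.03 over all genes. Cell division genes had medians below 0. The 31 S phase genes had a median of -0.18 and the 21 mitosis genes a median of -0.92, with 0 called in either list. The mitosis genes summed to 606, 106, 905 and 564 TPM with the combination and 844, 700 and 1088 TPM in control. Combination library 2 was thus far below the rest of its group and weighs on these medians. Mki67 itself differed by -1.16 (SE 0.66, adjusted p = 0.974), and by -1.55 to -0.45 over the alternatives. With the neuron list's mean as a covariate, 3 members were called higher (H3c2, H2bc8 and H2ac7), while the call count stayed at 0 with Mki67 as a covariate. All comparisons with control share the same 3 control libraries.

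**Figure D4:**
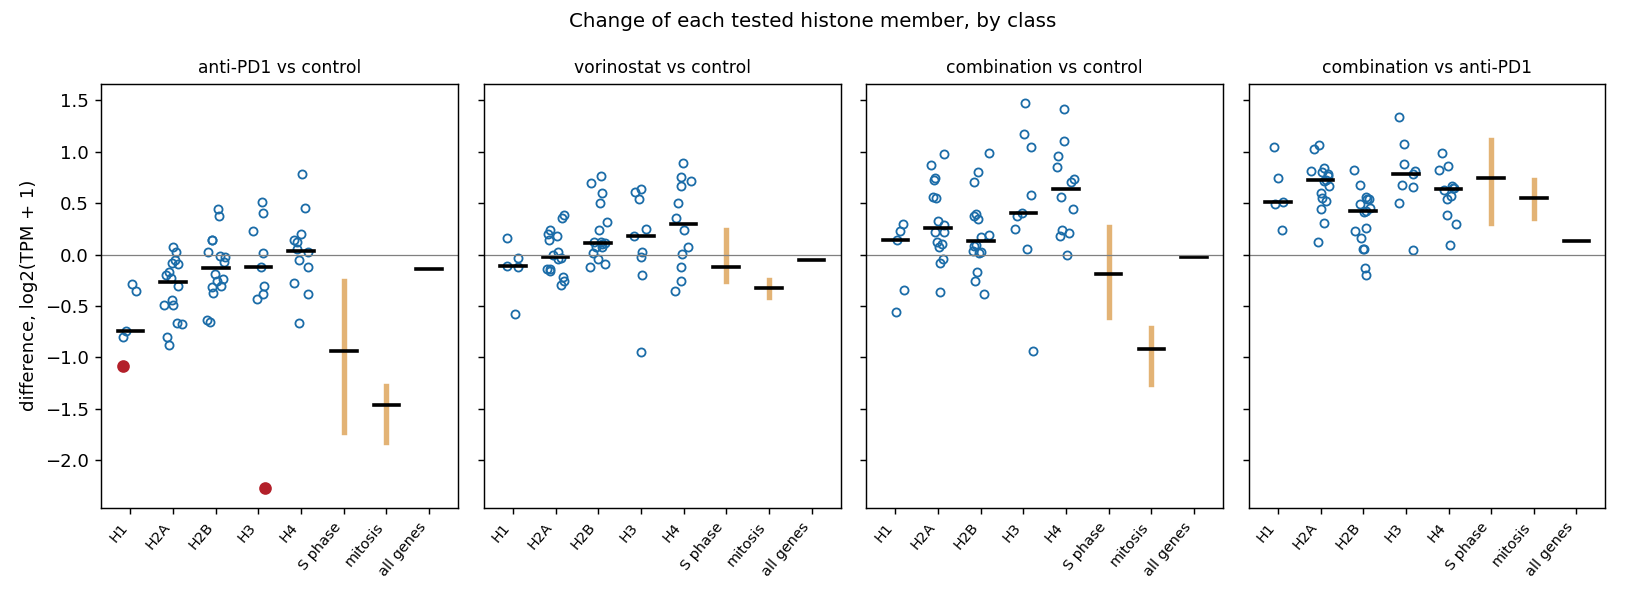
Differences on log2(TPM + 1) of the 58 tested members by class (points, filled where the adjusted p was under 0.05), with class medians as bars. For the S phase and mitosis lists the line spans the lowest to the highest gene, and for all genes only the median is drawn. In the combination against control, the H4 median is 0.64 and the mitosis median -0.92. The mitosis genes of combination library 2 summed to 106 TPM, the lowest of all libraries, which weighs on that median.

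The combination against anti-PD1 had the most members on one side among these comparisons: 56 of 58 differences were above 0 (96.6%, beside 65.6% of all genes), the exceptions being the H2B genes H2bc3 and H2bc14, and 37 had an unadjusted p under 0.05, beside 4558 of all 19390 genes. None passed the adjustment (0 of 58, beside 0.0155% of all genes). H4c12 had 36.4, 53.3, 64.5 and 56.3 TPM with the combination and 28.3, 23.6, 34.3 and 26.7 TPM with anti-PD1, a difference of 0.86 (SE 0.19, adjusted p = 0.121). H2bc22 had 1.81, 1.18, 2.16 and 2.09 TPM with the combination and 0.742, 0.185, 1.02 and 0.451 TPM with anti-PD1, a difference of 0.83 (SE 0.21, adjusted p = 0.135) that was 1.59 with a pseudocount of 0.1. Neither gene overlapped. H1f2 had 292, 208, 450 and 508 TPM with the combination and 183, 99.1, 196 and 213 TPM with anti-PD1, a difference of 1.05 (SE 0.30, adjusted p = 0.15), and the lowest combination library overlapped the highest anti-PD1 library. In all, 8 members lay wholly above anti-PD1 (13.8%, beside 4.95% of all genes) and 0 wholly below (1.68% of all genes).

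The median difference was 0.58 over the members and 0.13 over all genes, and median-of-ratios scaling moved the median of all genes to 0.01. S phase and mitosis genes had medians of 0.75 and 0.55 here, above 0 like the histone members' median. Same-numbered libraries of the 2 groups had r = 0.20 to 0.64 over genes. Differently numbered ones were not compared, so this does not show pairing. With the replicate number as a block 5 members were called higher: H1f2, H2ac12, H2bc12, H2bc22 and H4c12. Without anti-PD1 library 3, 6 members were called. The neuron genes had a median difference of -0.79 between the combination and anti-PD1 (0 of 16 called), and their part in the result was not tested beyond the covariate fit, in which 0 members were called.

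The combination against vorinostat asked what anti-PD1 added to vorinostat. No member was called (0 of 58, beside 0.0103% of all genes) and 5 had an unadjusted p under 0.05, beside 932 of all genes. H4c4 had 3.31, 1.56, 3.33 and 3.98 TPM with the combination and 1.20, 1.19, 1.53 and 1.89 TPM with vorinostat, a difference of 0.69 (SE 0.22, adjusted p = 0.716). H2ac4 had 2.50, 1.66, 3.11 and 3.53 TPM with the combination and 0.608, 1.18, 1.47 and 0.782 TPM with vorinostat, a difference of 0.87 (SE 0.30, adjusted p = 0.774). H4c4 overlapped between the groups and H2ac4 did not. The H2ac4 levels rest on 16, 8, 19 and 21 recovered reads with the combination and 4, 7, 10 and 5 with vorinostat, so they carry wide counting error. Of the 58 members 2 (H2ac4 and H3c1, 3.45%) lay wholly above vorinostat, beside 2.32% of all genes, and 0 wholly below, beside 0.825%. The median was 0.20 over the members and 0.02 over all genes. H2bc8 and H2bc11, of smallest p with vorinostat alone, differed by 0.22 (SE 0.19) and 0.01 (SE 0.16) between the combination and vorinostat.

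The interaction asked whether the anti-PD1 difference was another one in the presence of vorinostat. It was called for 0 of 58 members (0.0103% of all genes), with 7 at an unadjusted p under 0.05, beside 3182 of all genes. H3c14 had the smallest p: its anti-PD1 difference was -2.27 without vorinostat and 0.01 with it, an interaction of 2.29 (SE 0.77, adjusted p = 0.271). H3c14 had 18.2, 18.4, 8.27 and 21.2 TPM with the combination and 17.0, 12.8, 15.6 and 16.9 TPM with vorinostat. H2ac12 followed with 1.18 (SE 0.43, adjusted p = 0.271). It had 2.55, 2.92, 6.88 and 3.34 TPM with the combination and 1.77, 2.75, 3.79 and 2.37 TPM with vorinostat, and 1.15, 0.599, 2.52 and 1.30 TPM with anti-PD1 and 2.53, 2.25 and 4.63 TPM in control. These H2ac12 levels rest on 3 to 36 recovered reads per library (5, 3, 12 and 6 with anti-PD1), so they carry wide counting error. The median interaction was 0.38 over the members and 0.18 over all genes, or 0.01 over all genes after median-of-ratios scaling.

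Mki67 marks dividing cells, and its relation to the histone genes was examined within groups, in a limma fit of each gene on log2(Mki67 TPM + 1) with the 4 group means. Of 58 members 9 had a positive slope that passed (15.5%) and 0 a negative slope, beside 30.2% of all genes in either direction, 21.6% positive and 8.66% negative. By class, 2 of 5 H1, 2 of 16 H2A, 2 of 16 H2B, 2 of 9 H3 and 1 of 12 H4 genes passed. The smallest p were those of H3c3 (slope 0.37 log2 units per log2 unit of Mki67, SE 0.07, adjusted p = 0.00475), H1f1 (0.62, SE 0.13, adjusted p = 0.00637) and H1f2 (0.35, SE 0.10, adjusted p = 0.0194). H3c3 had 3.16, 0.625, 2.70 and 3.28 TPM with the combination and 1.18, 1.05 and 1.24 TPM in control, and H1f1 had 2.09, 0, 4.28 and 2.68 TPM with the combination and 3.39, 1.68 and 4.92 TPM in control. Combination library 2, with Mki67 at 8.19 TPM, was the lowest of its group in all 3 genes. H3c3 had 3 to 27 recovered reads per library and H1f1 0 to 70, so the slopes of both carry wide counting error. The largest p belonged to H3c8 (-0.02), H2bc1 (0.02), a gene best known from testis, and H2bc11 (0.02). By comparison the slope passed in 28 of 31 S phase genes, 20 of 20 mitosis genes, 12 of 16 chaperone genes, 8 of 11 replication-independent histone genes and 8 of 21 histone mRNA genes, all upward.

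These slopes rest on few libraries and on the fit. With the replicate number as a block, a pairing that the labels do not give, 1 of 58 members passed, H3c3 (0.41). H1f1 (0.47) and H1f2 (0.22) did not, and 20 of 20 mitosis genes and 14 of 31 S phase genes passed. The count was 2 without anti-PD1 library 2, 4 without combination library 2, 5 without vorinostat library 3 and 16 without combination library 1, and between 6 and 11 without any other. With the neuron list's mean as a covariate 0 members passed, while 20 of 20 mitosis genes and 7 of 31 S phase genes still did.

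Over all 15 libraries, Pearson's r with Mki67 was tested by permutation (100000 resamples, two-sided, adjusted over 19389 relations). It passed for 13 of 58 members (22.4%), all positive, beside 45.6% of all genes in either direction, 31.6% positive and 14% negative. The highest was H1f1, with r = 0.79 (permutation adjusted p = 0.0036) and Spearman's rho = 0.70 (permutation adjusted p = 0.0131). H1f2 had r = 0.61 (permutation adjusted p = 0.04) and rho = 0.65 (permutation adjusted p = 0.0248). Without the 2 libraries farthest from the median Mki67, combination 2 and anti-PD1 2, r was 0.57 for H1f1 and 0.44 for H1f2. The classes differed in their median r: 0.63 in H1, 0.44 in H2A, 0.27 in H2B, 0.31 in H3 and 0.05 in H4, and 0.45, 0.43, 0.15, 0.21 and -0.04 without those 2 libraries. None of the 12 H4 genes passed, and the lowest r were those of H4c6 (-0.48) and H4c8 (-0.47), which did not pass either (adjusted p = 0.123 and 0.137 by permutation). The difference between classes was not tested.

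**Figure D5:**
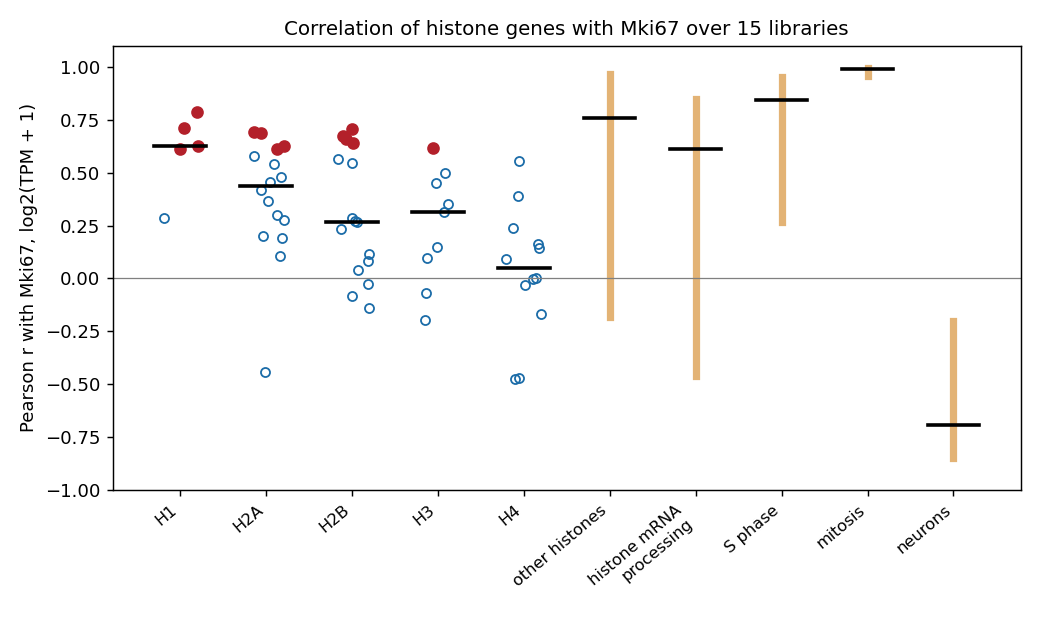
Pearson's r with Mki67 on log2(TPM + 1) over 15 libraries for the 58 tested members by class (points, filled where the adjusted permutation p was under 0.05, bars at class medians). The lines span the lowest to the highest gene of 5 other lists with a bar at the median: mitosis genes lie at a median of 0.99, neuron genes at -0.69, and H4 genes at 0.05.

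Mitosis genes (median r = 0.99), S phase genes (0.84) and replication-independent histone genes (0.76) are set beside the 58 histone members (median 0.28) and all genes (0.26). Within groups, the median r was 0.40 over the members and 0.23 over all genes: 0.63 in H1, 0.54 in H2A, 0.37 in H2B, 0.34 in H3 and 0.23 in H4. The 19 members with a mean of at least 10 TPM had a median of 0.28 over all libraries, and so did the 39 below it. H2bc8, H2bc4 and H2bc11, the H2B genes that lay wholly above control with vorinostat and with the combination, had r = 0.08, -0.03 and 0.04 with Mki67 over all libraries and r = 0.58, 0.34 and 0.09 within groups, where the slope of H2bc8 was 0.18 (SE 0.07, adjusted p = 0.0796). Neuron genes had a median r of -0.69 with Mki67, and their part in the correlations was not tested.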

How the data were processed

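RNA of 15 mouse glioma samples was sequenced after library preparation with the NEBNext Ultra RNA kit, per the labels' protocols. The authors deposited 1 table of TPM (reads per gene length on a common total per library; 15 of 15 columns were used, 0 were left out). The submitters' processing notes list build mm10 and the tools DESeq2, StringTie, HISAT2 and FastQC, without roles. Versions, the adjustment named in the table and the handling of reads with several positions are not given in the sources used here. The TPM values sum to 996108 to 997722. Whole reads were recovered from the TPM steps for 38151 of 38172 symbols (99.9%, tolerance 0.01 read).

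Values were tested as log2(TPM + 1) with limma 3.58.1 (R 4.3.3, empirical Bayes with trend) in 1 fit of 4 group means, over genes that reached 1 TPM in 3 or more libraries. Calls needed a Benjamini-Hochberg adjusted p under 0.05. Tests are two-sided. Permutation tests used numpy 2.4.6. The fit was tested on simulated data. Alternatives were another pseudocount (0.1), no filter, a mean of at least 5 TPM, median-of-ratios scaling, limma's voom on recovered reads, the replicate number as block, covariates, 2-group fits and leaving out each library. Groups came from the labels. Same-numbered anti-PD1 and combination libraries had r = 0.20 to 0.64 over genes in 4 of 4 cases, after group means were removed. Differently numbered libraries were not compared, so these r do not show that the libraries are pairs, and the labels do not pair them. Same-numbered vorinostat and control libraries also had r above 0 (0.03 to 0.46), as had anti-PD1 and control (0.05 to 0.30).

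Members and lists were chosen with earlier results of these data known. Named members were the 3 highest of each class, those called or else the 2 of smallest p in each comparison, the 3 smallest and 3 largest p of the Mki67 slope, and H2bc4, H2bc11 and H3c14. Of other lists, genes of smallest p with anti-PD1 and 11 genes fixed by name were given. Members listed under a count of 12 or fewer were chosen after seeing their values. Sequences came from GENCODE vM21 transcripts and RefSeq promoter windows (GRCm38.p6).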

Additional observations from a re-analysis of the deposited data

Results flagged for a closer look

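In 105 sets of 4 libraries of 1 treated group, 1 library stood apart from the others by Dixon's criterion, with a gap to its neighbour of 0.963 of the range. H2bc21, an H2B gene of the chromosome 3 cluster, had 71.9 TPM in vorinostat library 4, while the other 3 vorinostat libraries had 24.6 to 26.4 TPM. Chance flags about 1 in 20 such sets.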

How the results depend on the processing

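For anti-PD1 against control, the count of 2 members called became 1 with a pseudocount of 0.1, with a mean of at least 5 TPM, with median-of-ratios scaling and with voom on recovered reads. It became 0 with no filter on low values, with Mki67 or the neuron mean as covariate and with only the 2 groups compared, and ran from 0 to 7 when 1 library was left out. With the replicate number as a block it became 8, 1 higher and 7 lower. For the combination against control the count of 0 became 3 with that block and 3 with the neuron mean as covariate. For the combination against anti-PD1 the block gave 5, and leaving out 1 library gave 0 to 6. For the Mki67 slope the count of 9 became 1 with the block, 0 with the neuron mean and 16 with no group term, and ran from 2 to 16 when 1 library was left out. The causes were not tested, but the 2-group fit has fewer samples. Counts for vorinostat against control, the combination against vorinostat and the interaction stayed at 0 under every alternative run. Same-numbered libraries share only that number in the labels (lowest r = -0.28, between anti-PD1 and vorinostat), and the block changed no other call count. Of 56 single-gene results run under the alternatives, 8 changed sign, and none of these was called. The Mki67 slope of H2bc11 (0.02) was -0.018 with median-of-ratios scaling, -0.11 with the block and -0.024 with the neuron mean; that of H2bc1 (0.02) was -0.090 with the block; that of H2bc4 (0.09) was -0.065 with the block, -0.034 with the neuron mean and -0.0089 with no group term. Combination against vorinostat, H2bc11 (0.01) was -0.033 with median-of-ratios scaling and -0.035 with voom, and H3c14 (0.01) was -0.032, -0.038 and, with the neuron mean, -0.0029. When 1 library was left out, these ran from -0.019 to 0.18 (H2bc11 slope), -0.012 to 0.19 (H2bc1 slope), -0.067 to 0.15 (H2bc11) and -0.13 to 0.29 (H3c14), the slope of H3c8 (-0.02) from -0.10 to 0.058, and combination against anti-PD1 H2bc3 (-0.20) from -0.41 to 0.062 and H2bc14 (-0.13) from -0.34 to 0.026. H1f5 kept an adjusted p of 0.0165 to 0.305 and H3c14 of 0.0263 to 0.287 over the alternatives, and Slbp of 0.011 to 0.223. The alternatives for Slbp, for the other genes and lists outside the members and for member changes outside the naming rule were added after seeing the data. With 3 or 4 libraries a group and fewer than 20 reads in the median library of 27 members, small differences of low members were not detectable.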
